A study of Mus musculus with 6 samples.

Results

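The genes described here are the 5 immunoglobulin heavy-chain constant genes Igha, Ighm, Ighg1, Ighg2b and Ighg2c, the light-chain constant genes Igkc and Iglc2, and the plasma cell genes Jchain and Mzb1. They were found by symbol in the deposited expression table, which holds each of the 9 exactly once among 41064 genes, and all 9 passed the filter on low counts, as did 20132 genes in all. The study compared whole aortas of mice given Ang II (angiotensin II), a peptide that raises blood pressure and drives remodelling of the vessel wall. One group of 3 libraries is labelled JOSD2 KO with Ang II and the other 3 are labelled WT with Ang II, so treatment is common to both groups. The labels used here do not give strain, age, dose, time under treatment or how the knockout was made.

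The targeted gene, Josd2, was still read in the libraries labelled knockout, at 21.7, 19.9 and 21.4 CPM (counts scaled to library size, with TMM correction of each library's total), against 29.9, 31.0 and 29.3 CPM in WT. Its log2 fold change was -0.52 with TMM (edgeR adjusted p = 0.000244) and -0.11 with library totals (edgeR adjusted p = 0.231), so the call on it depends on the scaling. The samples are therefore called libraries labelled knockout. Summed counts lay between 63612353 and 75886761 per library. Mitochondrially encoded genes took 23.8% to 23.9% of counts in the libraries labelled knockout and 36.2% in each WT library, and dividing by library totals instead of TMM raises the median log2 fold change of all genes by 0.41. Smooth muscle transcripts were abundant in both groups, read from 5 markers (Myh11, Acta2, Tagln, Cnn1 and Smtn). These summed to 19261 to 19368 CPM in the libraries labelled knockout and 19894 to 20073 CPM in WT. Such markers do not tell aorta from other smooth muscle. Poly(A) RNA was sequenced in pairs of reads, and the extraction text speaks of adipose tissue although every sample is labelled aorta. Each group comes from 3 mice according to the design text, yet which mouse gave which library is not labelled, and all p-values refer to the spread among these libraries, part of which may be technical.

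An antibody consists of paired heavy and light chains, and the heavy-chain constant gene sets its class. A B cell first makes IgM from Ighm and can then switch by deletion of DNA to a constant gene further along the locus, giving IgG or IgA. Plasma cells, the end stage of the lineage, secrete antibody in large amounts and carry very many immunoglobulin transcripts per cell. Jchain encodes the joining chain that links IgA and IgM units into polymers, and Mzb1 encodes a chaperone of the endoplasmic reticulum that aids antibody assembly. The mouse heavy-chain members lie on chromosome 12, minus strand, in the order Ighm (113418558 to 113422730), Ighg1 (113325240 to 113330523), Ighg2b (113302965 to 113307933), Ighg2c (113285325 to 113288932) and Igha (113254830 to 113260236), as the table gives them, which is also the order of class switching. Igkc lies on chromosome 6 (70726435 to 70726966, plus strand) and Iglc2 on chromosome 16 (19198396 to 19200351, minus strand). Jchain lies on chromosome 5 (88519809 to 88527891, minus strand). These coordinates equal those of GENCODE release M21 on build GRCm38 for all 9 genes, Mzb1 included.

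The secreted forms of the 5 heavy chains end differently, and that end decides whether the joining chain can attach. The last 60 coding bases before the stop codon of each secreted transcript, read from GENCODE M21 transcripts (GRCm38, chromosome 12, minus strand), are shown 5′ to 3′, with a penultimate codon in capitals where it encodes cysteine, the residue through which IgA and IgM tails bond.
Igha, chr12:113258771-113258830: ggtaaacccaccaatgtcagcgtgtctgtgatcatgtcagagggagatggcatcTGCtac
Ighm, chr12:113420870-113420929: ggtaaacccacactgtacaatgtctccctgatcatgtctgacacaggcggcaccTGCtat
Ighg1, chr12:113328979-113329038: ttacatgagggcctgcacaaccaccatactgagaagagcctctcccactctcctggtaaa
Ighg2b, chr12:113306392-113306451: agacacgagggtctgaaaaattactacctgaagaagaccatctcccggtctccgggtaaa
Ighg2c, chr12:113287392-113287451: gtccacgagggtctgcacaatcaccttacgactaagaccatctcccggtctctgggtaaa
The ends of Igha and Ighm match at 41 of 60 positions and both carry the cysteine codon, whereas none of the 3 IgG ends does. Pairs of the IgG ends match at 41 to 46 of 60. The deposited table gives 1 value per gene, so secreted and membrane forms were not separated.

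IgA transcripts were the largest part of the heavy-chain pool in the libraries labelled knockout and a minor part in WT. Igha, the IgA constant gene, stood at 27.0, 26.6 and 28.7 FPKM (fragments per kilobase of exon, scaled to library size, as deposited) in the libraries labelled knockout, against 2.38, 2.77 and 3.89 FPKM in WT. Every library labelled knockout lay far above the highest WT library, with counts of 5933 to 6528 against 478 to 909. The edgeR quasi-likelihood test gave a log2 fold change of 2.77 (SE 0.14, adjusted p = 1.12e-07), a 6.83-fold rise.

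Ighm, the IgM constant gene, went the other way on the TMM scale. Its FPKM were 7.18, 8.66 and 7.62 in the libraries labelled knockout, against 7.12, 8.93 and 10.1 in WT, and on this scale the groups overlapped. In TMM-scaled CPM they did not, at 13.9, 16.8 and 14.7 against 18.3, 23.0 and 26.0, and Ighm fell (log2 fold change -0.57, SE 0.13, edgeR adjusted p = 0.00736). With library totals the log2 fold change was -0.16 and edgeR no longer called it (adjusted p = 0.348). The call on Ighm therefore depends on the scaling, and it was also absent in limma on FPKM (log2 fold change -0.13, adjusted p = 0.403). Leaving mitochondrial genes out of the TMM fit did not change it (-0.57, edgeR adjusted p = 0.00733).

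The 3 IgG members did not move by the same amount. Ighg1, the IgG1 gene, had 2.40, 2.29 and 2.25 FPKM in the libraries labelled knockout, against 0.110, 0.215 and 0.283 FPKM in WT. Behind these lie 514, 532 and 499 counts in the libraries labelled knockout and only 22, 44 and 65 in WT, and edgeR gave an 8.40-fold rise (log2 fold change 3.07, SE 0.30, adjusted p = 2.01e-05). Ighg2b, the IgG2b gene, stood at 5.88, 6.29 and 6.85 FPKM in the libraries labelled knockout, against 2.26, 2.16 and 3.89 FPKM in WT. It rose 1.72-fold (edgeR log2 fold change 0.78, SE 0.19, adjusted p = 0.0133). That call was lost in edgeR without labelled knockout 3 (adjusted p = 0.0566) or without WT 1 (adjusted p = 0.055). Ighg2c, the IgG2c gene that C57BL/6 mice carry in place of Ighg2a, had 11.4, 14.3 and 14.0 FPKM in the libraries labelled knockout, against 5.94, 5.51 and 10.3 FPKM in WT. In CPM its groups overlapped through WT 3, and it did not pass (log2 fold change 0.46, unadjusted 95% interval 0.0044 to 0.91, edgeR adjusted p = 0.138). Without WT 3 it passed upward (0.80, edgeR adjusted p = 0.00186), as it did with library totals (0.87, edgeR adjusted p = 0.00452).

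Both light-chain genes rose. Igkc, the kappa constant gene and the most abundant of the 9 per length in both groups, had 90.1, 99.5 and 99.7 FPKM in the libraries labelled knockout, against 15.98, 22.1 and 36.0 FPKM in WT. The rise was 2.93-fold (edgeR log2 fold change 1.55, SE 0.22, adjusted p = 0.000338). Iglc2, a lambda constant gene, had 5.81, 7.73 and 6.75 FPKM in the libraries labelled knockout, against 1.32, 0.822 and 2.10 FPKM in WT, up 3.55-fold (edgeR log2 fold change 1.83, SE 0.32, adjusted p = 0.0015). Neither gene's groups overlapped, and WT 3 was the highest WT library for both. Iglc2 differs from Iglc3, another lambda gene of the same cluster, at 11 of 314 coding bases compared, yet only 0.931% of its 75-base stretches also occur in Iglc3. Their last 90 coding bases (GENCODE M21, GRCm38, chromosome 16, minus strand) show how alike they are, with the base at which Iglc3 departs from Iglc2 in capitals.
Iglc2, chr16:19198539-19198628: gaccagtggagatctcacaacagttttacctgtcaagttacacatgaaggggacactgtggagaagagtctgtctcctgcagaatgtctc
Iglc3, chr16:19065368-19065457: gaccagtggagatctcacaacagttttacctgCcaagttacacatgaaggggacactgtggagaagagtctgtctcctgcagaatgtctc
Iglc3 itself had a log2 fold change of -0.69 and did not pass (SE 0.63, edgeR adjusted p = 0.488).

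The plasma cell genes differed in how firmly they could be read. Jchain stood at 7.19, 6.87 and 7.37 FPKM in the libraries labelled knockout, against 2.03, 1.79 and 2.70 FPKM in WT. The groups were well apart, and the gene rose 2.47-fold (edgeR log2 fold change 1.30, SE 0.14, adjusted p = 5.54e-05). Mzb1, at 35647267 to 35649367 on the minus strand of chromosome 18, was scarce, with 0.730, 0.863 and 0.544 FPKM in the libraries labelled knockout, against 0.290, 0.138 and 0.432 FPKM in WT, from 58 to 95 counts against 14 to 47. It did not pass (log2 fold change 0.86, unadjusted 95% interval -0.23 to 1.96, edgeR adjusted p = 0.251). In FPKM its groups did not overlap, and limma called it higher on log2(FPKM + 1) (adjusted p = 0.0159) and on log2(FPKM + 0.1) (adjusted p = 0.0246). A longer gene model on the same strand, SPATA24 in GENCODE M21, covers 57.2% of the Mzb1 exon bases, so its reads are not certain to be its own.

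**Figure D1:**
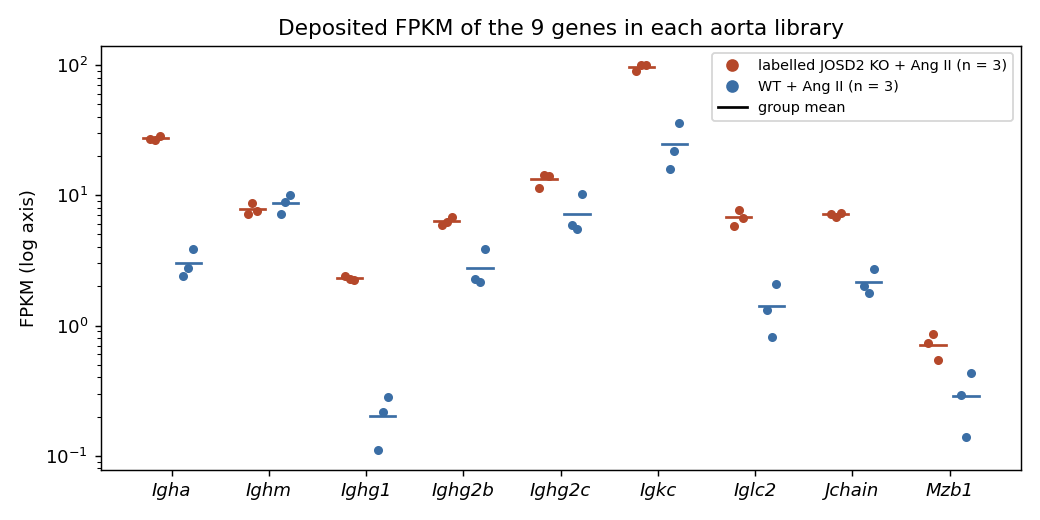
Each point is 1 library's deposited FPKM on a log axis, for the 9 genes along the horizontal axis, with libraries labelled JOSD2 KO left of WT and a bar at each group's mean (n = 3). Igha sits between 26.6 and 28.7 FPKM in the libraries labelled knockout and between 2.38 and 3.89 in WT, while the Ighm groups overlap at 7.18 to 8.66 and 7.12 to 10.1.

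Of the 9 genes 6 rose, 1 fell and 2 did not pass in edgeR. Over all genes tested, 13.2% rose and 11.5% fell. In CPM the groups did not overlap, with the libraries labelled knockout higher, for 6 of the 9, where 21.3% of tested genes did the same, and Ighm was the 1 member whose groups were apart in the lower direction, where the figure for all tested genes was 19.8%. The median log2 fold change was 1.30 over the 9 and -0.0031 over all tested genes. With library totals 7 rose, where 46.8% of tested genes rose, and 0 fell in edgeR, and the medians were 1.71 and 0.41. Limma on log2(FPKM + 1) called 8 higher, where 46.9% of tested genes were higher, and 0 lower. WT 3 had the highest FPKM of the WT libraries for all 9 genes. Without it, a removal that favours a rise, log2 fold changes of the 6 that rose were all above 1.1. That of Ighg2b was 0.78 with all libraries, 0.66 without WT 1 and 0.63 without WT 2. In a bulk sample, more cells of a type and more RNA per cell cannot be told apart.

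**Figure D2:**
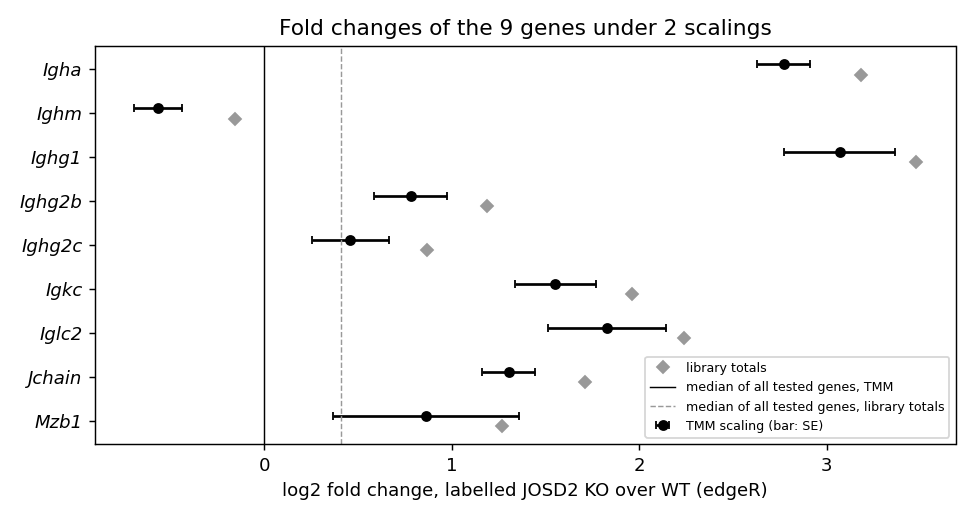
The horizontal axis gives the log2 fold change, libraries labelled JOSD2 KO over WT, for each of the 9 genes, with circles and SE bars for TMM scaling and diamonds for library totals. Vertical lines mark the median of all tested genes, at -0.0031 with TMM and 0.41 with library totals, and Ighm is the only one of the 9 left of both.

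Antibody class use was compared within each library, as a share of the summed FPKM of the 5 heavy-chain genes, a quantity that library scaling does not enter. That sum was 53.8, 58.2 and 59.4 FPKM in the libraries labelled knockout and 17.8, 19.6 and 28.5 FPKM in WT. Igha made up 50.1%, 45.8% and 48.3% of it in the libraries labelled knockout and 13.4%, 14.1% and 13.7% in WT. Ighm made up 13.3%, 14.9% and 12.8% in the libraries labelled knockout and 40.0%, 45.6% and 35.6% in WT. Igha was the largest class in each library labelled knockout, whereas in each WT library it stood behind both Ighm and Ighg2c in FPKM. On counts not divided by length it was just ahead of Ighg2c in WT 2, at 19.5% against 19.3%. Ighg1 took 3.79% to 4.46% in the libraries labelled knockout and 0.617% to 1.10% in WT, a small class in both. Ighg2c took 21.2% to 24.6% against 28.1% to 36.1% in WT, a lower share although its FPKM was higher. Ighg2b took 11.1% ± 0.388 in the libraries labelled knockout and 12.5% ± 1.33 in WT (SD, n = 3 each), and its groups overlapped. On counts not divided by length they did not overlap, at 13.2% ± 0.457 in the libraries labelled knockout and 17.5% ± 1.98 in WT.

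An exact two-sided permutation test over samples gave p = 0.1 for Igha, Ighm, Ighg1 and Ighg2c, which is the smallest p that 3 against 3 allows, and p = 0.2 for Ighg2b, whose groups overlapped (adjusted over the 5 classes, 0.125 and 0.2). No class could therefore pass at 0.05. The mean share in the libraries labelled knockout minus that in WT was 34.4 percentage points for Igha, -26.7 for Ighm, 3.16 for Ighg1, -9.42 for Ighg2c and -1.38 for Ighg2b, and the groups did not overlap for the first 4. Shares in a fixed total are tied, so a larger Igha share alone lowers the others. The deposited FPKM divide by all annotated exons of a gene, which for Igha includes a long membrane exon (2668 bases in all, against 1100 in the secreted transcript). Counts per secreted-transcript length, an alternative added after seeing the data, put Igha at 57.03% to 60.5% in the libraries labelled knockout and 20.9% to 22.2% in WT.

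**Figure D3:**
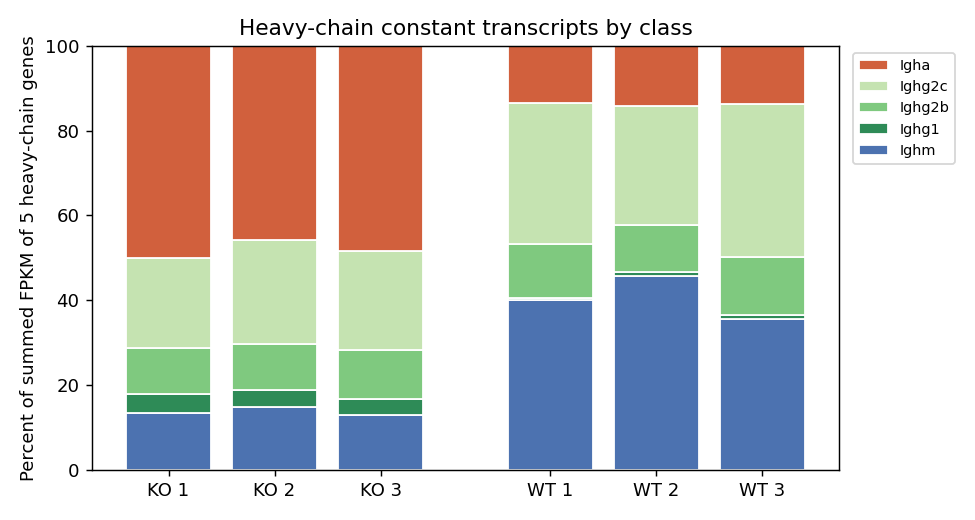
Stacked bars give the percent of summed FPKM of the 5 heavy-chain constant genes taken by each class in each library, the libraries labelled JOSD2 KO left and WT right. Igha, the top segment, spans 45.8% to 50.1% in the libraries labelled knockout and 13.4% to 14.1% in WT, and Ighm, the bottom segment, 12.8% to 14.9% and 35.6% to 45.6%.

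Ratios between members show the same data without a fixed total. The FPKM ratio of Igha to Ighm was 3.76, 3.08 and 3.77 in the libraries labelled knockout, against 0.334, 0.310 and 0.384 in WT, a 10.3-fold difference. Igha thus exceeded Ighm in every library labelled knockout and in no WT library. Summed IgG means Ighg1, Ighg2b and Ighg2c, without Ighg3. Summed IgG to Ighm was 2.74, 2.64 and 3.03 in the libraries labelled knockout and 1.17, 0.883 and 1.43 in WT, 2.46-fold apart. Igha to summed IgG was 1.37, 1.16 and 1.24 in the libraries labelled knockout and 0.286, 0.351 and 0.269 in WT, 4.19-fold apart. The groups did not overlap for any of these 3 ratios.

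Other ratios were closer. Summed light chain to summed heavy chain was 1.78, 1.84 and 1.79 in the libraries labelled knockout and 0.971, 1.17 and 1.34 in WT. In counts not divided by length, its mean log2 value was -1.21 in the libraries labelled knockout and -1.64 in WT. Whether light exceeds heavy chain thus depends on that division, while the groups did not overlap on either scale. Jchain to summed heavy chain was 0.134, 0.118 and 0.124 in the libraries labelled knockout and 0.114, 0.0915 and 0.0949 in WT, so the joining chain kept close to the heavy-chain sum, with a log2 difference of 0.33 in FPKM and 0.096 in counts. For Igkc to Iglc2 the groups overlapped, at 15.5, 12.9 and 14.8 against 12.1, 26.8 and 17.2 in WT, and the log2 difference was -0.31 (exact permutation p = 0.5). Single WT libraries decide that value, which was -0.58 without WT 1, where the groups did not overlap, and -0.0075 without WT 2. Mzb1 to summed heavy chain overlapped too, at 0.0136, 0.0148 and 0.00917 against 0.0163, 0.00707 and 0.0152 (exact permutation p = 1). Exact permutation p was 0.1 for each of the other 5 ratios, the smallest possible, and 0.14 when adjusted over the 7.

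**Figure D4:**
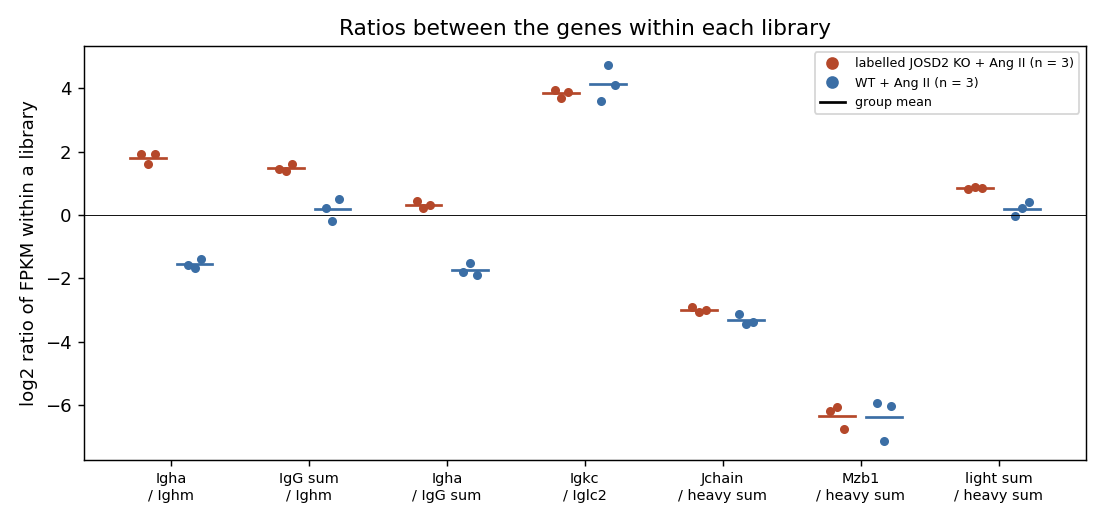
Points give the log2 ratio of FPKM between members within a library, for 7 ratios along the horizontal axis, libraries labelled JOSD2 KO left of WT, with a bar at each group's mean (n = 3). The Igha to Ighm ratio lies at 1.62 to 1.91 in the libraries labelled knockout and at -1.69 to -1.38 in WT, while the groups overlap for Igkc to Iglc2 and for Mzb1 to the heavy-chain sum.

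The order of levels per length differed between the groups. Length here means all annotated exons, 1326 bases for Ighg2c and 2678 for Ighg2b, whereas their secreted transcripts have 1111 and 1114. In the libraries labelled knockout their counts were alike, at 1246 to 1703 for Ighg2c and 1300 to 1564 for Ighg2b. The order among heavy-chain genes therefore depends on this division. In the libraries labelled knockout Igkc led at 96.4 ± 5.47 FPKM, followed by Igha at 27.4 ± 1.11 and Ighg2c at 13.2 ± 1.60. Ighm (7.82 ± 0.764), Jchain (7.14 ± 0.253), Iglc2 (6.76 ± 0.957) and Ighg2b (6.34 ± 0.485) came next and did not differ from their neighbours in that order beyond their spread. Ighg1 followed at 2.31 ± 0.077 FPKM and Mzb1 was last at 0.712 ± 0.160. In WT Igkc also led at 24.7 ± 10.3 FPKM, and Ighm (8.73 ± 1.52) and Ighg2c (7.24 ± 2.63) overlapped behind it. Igha (3.01 ± 0.784), Ighg2b (2.77 ± 0.970) and Jchain (2.17 ± 0.472) overlapped as well. Iglc2 followed at 1.41 ± 0.644 FPKM. Its range overlapped that of Jchain, though Iglc2 was lower than Jchain within each WT library. Mzb1 (0.287 ± 0.147) and Ighg1 (0.203 ± 0.087) were lowest in WT (SD, n = 3 throughout).

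The remaining immunoglobulin constant genes showed no call. Of 6 such genes 4 were tested and 0 passed in edgeR, with 1 at an unadjusted p under 0.05, Iglc1. Ighd, the IgD gene of resting B cells, had a log2 fold change of 0.11 (SE 0.42) and Ighg3, the IgG3 gene, of -0.50 (SE 0.30). As a share of FPKM over all heavy-chain constant genes, Ighg3 took 1.05% to 1.51% in the libraries labelled knockout. In WT it took 3.05% to 3.72%, so the groups did not overlap, a difference that was not tested. The lambda gene Iglc1 stood at 1.32 (SE 0.46, edgeR adjusted p = 0.0629) and passed upward with library totals (1.73, edgeR adjusted p = 0.00839). Ighe, the IgE gene, had 6 counts in labelled knockout 2 and 0 in the other 5 libraries, and Iglc4 had 0 counts in all 6.

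Of 15 listed B cell genes none rose, 1 fell and 14 did not pass in edgeR, where 13.2% of all tested genes rose and 11.5% fell. The list had a median log2 fold change of -0.49 (with library totals 1 rose and 1 fell). Ms4a1, which encodes CD20, had 1.03, 1.11 and 1.17 CPM in the libraries labelled knockout, against 1.18, 0.721 and 2.76 CPM in WT (-0.50, SE 0.45, edgeR adjusted p = 0.479). WT 3 was the highest library for Ms4a1, as it was among WT for the 9. The gene that fell was Cd72, a B cell surface receptor (-1.33, SE 0.13, edgeR adjusted p = 2.35e-05). Ms4a1 lay near 1 CPM, and its SE of 0.45 leaves sizeable changes undetectable.

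Of 18 listed plasma cell genes 17 were tested, 2 rose, 2 fell and 13 did not pass, shares near those of all tested genes (13.2% and 11.5%). They had a median log2 fold change of -0.13. Levels on this list differed widely. Mean CPM of Txndc5 was 215 in both groups. For Xbp1 it was 93.0 in the libraries labelled knockout and 98.7 in WT, and for Sdc1 44.6 and 43.8. Prdm1 had only 0.477 and 0.564. Which cells gave these reads was not tested, so the calls on this list cannot be assigned to plasma cells. Tent5c, a poly(A) polymerase that stabilises immunoglobulin mRNA, rose to 15.7 ± 0.360 CPM in the libraries labelled knockout, against 8.39 ± 0.886 CPM in WT (SD, n = 3 each; log2 fold change 0.91, SE 0.11, edgeR adjusted p = 0.000123). Cd38, a surface enzyme, rose by 0.54 (SE 0.16, edgeR adjusted p = 0.0278). Fkbp11, a secretory pathway isomerase (-0.80, SE 0.22), and the elongation factor gene Ell2, which favours the secreted heavy-chain form (-0.46, SE 0.09), fell, and both lost their calls with library totals. The regulators Xbp1 (-0.09, SE 0.04), Irf4 (0.09, SE 0.30) and Prdm1 (-0.24, SE 0.69) and the surface proteoglycan gene Sdc1 (0.03, SE 0.07) did not pass. Tnfrsf17, which encodes the survival receptor BCMA, was barely read, with 9 counts in labelled knockout 1, 4 counts in WT 2 and 0 elsewhere. With library totals 6 of the 17 rose, Xbp1 and Sdc1 among them, and none fell, where 46.8% of all tested genes rose. Of 9 genes of germinal centres and class switching 7 were tested and none passed. With library totals 4 of these 7 rose, against the same 46.8% of all tested genes.

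Of 11 listed antibody receptors and transporters 8 were tested, 2 rose, 4 fell and 2 did not pass, where 13.2% of all tested genes rose and 11.5% fell. The Fc receptor genes Fcer1g (-1.42, SE 0.10), Fcgr4 (-1.24, SE 0.30), Fcgr1 (-0.98, SE 0.20) and Fcgr3 (-0.62, SE 0.07) fell, also with library totals. All 4 are known from macrophages. Beside them 4 of 5 macrophage markers fell, with that list summing to 263 to 267 CPM in the libraries labelled knockout and 546 to 563 CPM in WT. With library totals 3 of these markers fell and 1 rose. Pigr, the receptor that carries polymeric IgA and IgM across epithelia, rose to 1.34, 0.962 and 1.21 CPM in the libraries labelled knockout, against 0.163, 0.616 and 0.217 CPM in WT (log2 fold change 1.82, SE 0.54, edgeR adjusted p = 0.0311). Fcgrt, the neonatal Fc receptor gene that recycles IgG, rose by 0.18 (SE 0.04, edgeR adjusted p = 0.00533).

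Of 19 listed genes that attract or sustain plasma cells 16 were tested, 2 rose, 5 fell and 9 did not pass, beside the same 13.2% and 11.5% over all tested genes. With library totals 7 rose and 3 fell, where 46.8% of all tested genes rose and 3.81% fell. The 2 that rose with TMM were Tnfsf13b and Cxcl13, the latter given below. Tnfsf13b, which encodes the B cell survival factor BAFF, rose to 18.9 ± 2.44 CPM in the libraries labelled knockout, against 12.4 ± 0.660 CPM in WT (edgeR log2 fold change 0.61, SE 0.11, adjusted p = 0.00193). The adhesion molecule gene Vcam1 fell 2.81-fold (-1.49, SE 0.04), Il6 fell 4.07-fold (-2.03, SE 0.32) and its receptor gene Il6ra fell by 0.90 on the log2 scale (SE 0.13). Cxcl12, a chemokine that retains plasma cells in bone marrow, fell by 0.32 (-0.32, SE 0.03, edgeR adjusted p = 1.26e-05), a direction that turned with library totals (0.09, edgeR adjusted p = 0.0263). The integrin gene Itga4 fell by 0.45 (-0.45, SE 0.10) and lost its call with library totals.

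**Figure D5:**
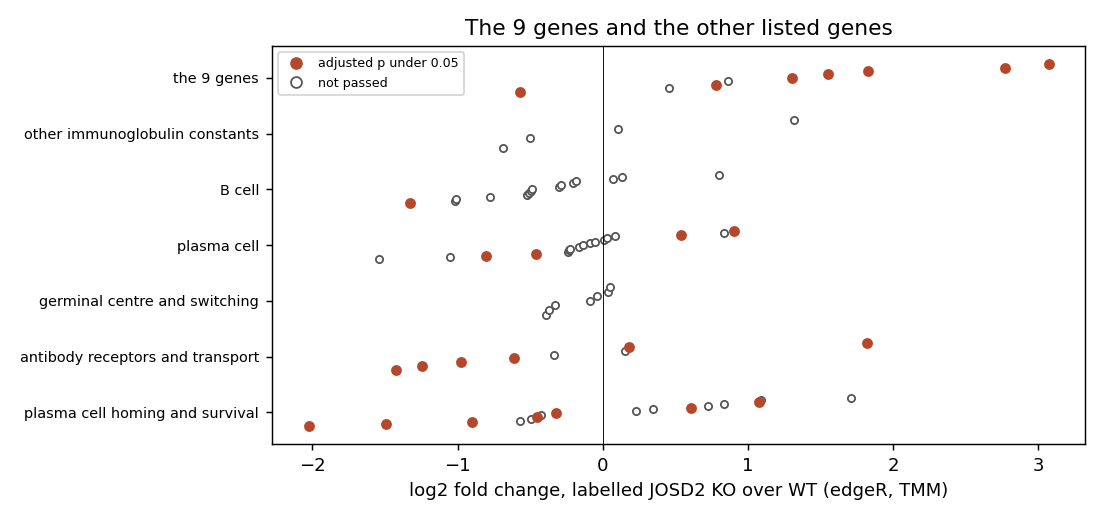
Each point is 1 tested gene's log2 fold change, libraries labelled JOSD2 KO over WT with TMM scaling, in rows for the 9 genes and 6 other lists, filled where the edgeR adjusted p was under 0.05. The 9 genes reach from -0.57 to 3.07 with 7 filled points, whereas the B cell row holds 1 filled point, at -1.33.

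Transcripts of other tissues moved between the groups as well, where 13.2% of all tested genes rose and 11.5% fell in edgeR. Of 5 thymocyte genes 3 were tested and all 3 rose, with the list summing to 5.75 to 7.63 CPM in the libraries labelled knockout and 2.08 to 2.76 CPM in WT. Rag1, a recombinase of developing lymphocytes, had 142, 65 and 215 counts in the libraries labelled knockout, against 4, 3 and 0 in WT. Of 8 T cell genes 3 rose (Cd8a, Cd8b1 and Lck) and 5 did not pass, and the list summed to 10.4 to 13.5 CPM against 5.53 to 9.69 CPM in WT. Of 6 genes of lymph nodes and follicular dendritic cells 5 were tested and 1 rose, the B cell attractant Cxcl13 (log2 fold change 1.07, SE 0.25, edgeR adjusted p = 0.00882), while the list's sums overlapped at 12.4 to 14.4 against 11.0 to 15.6 CPM in WT. Of 6 gut epithelial genes 5 were in the table and 2 were tested, neither passing, and they summed to 5.995 to 6.60 CPM against 3.75 to 5.55 CPM in WT, nearly all of it Lgals4. All 5 tested genes of a list for kidney, lung and seminal vesicle fell, with sums of 0.962 to 1.18 CPM against 28.0 to 29.9 CPM in WT. Of 5 fat genes 3 rose (655 to 661 against 507 to 538 CPM in WT), and 2 of 3 blood genes fell (179 to 201 against 261 to 288 CPM in WT). With library totals 3 fat genes and 1 gut gene rose and 1 blood gene fell. On that scale 46.8% of all tested genes rose and 3.81% fell. All 4 endothelial genes rose, and none of 4 mesothelial genes passed. The part of these tissues in the antibody gene differences was not tested.

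Among genes outside the immunoglobulin loci, likeness to the 9 was measured as Pearson's r of log2(CPM + 1) with the mean standardised profile of the 9 over the 6 libraries, given as a description over few libraries that share the split between groups. Of 10793 genes compared, 185 had r above 0.95, so an r near 1 was not limited to a few genes. The 5 highest were Tspan4 (r = 0.999), Rn7sk (0.998), Bcl9 (0.998), Stt3b (0.997) and Mepce (0.995). That profile was 0.49 to 0.78 in the libraries labelled knockout, near -0.94 and -0.96 in WT 1 and WT 2, and 0.013 in WT 3. Their changes were small next to those of the antibody genes, with log2 fold changes of 0.11 for Stt3b, which encodes an oligosaccharyltransferase subunit, 0.19 for Tspan4, a tetraspanin gene, 0.30 for Bcl9 and 0.35 for Mepce. Rn7sk, a small nuclear RNA, stood at 2.08 (SE 0.72, edgeR adjusted p = 0.059) and did not pass.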

How the data were processed

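The authors deposited 1 table with counts and FPKM per gene for 6 aorta libraries. Per the submitters' processing notes, Bowtie 0.12.2, HISAT2 2.0 and build mm8 were named, with no role or order; the coordinates in the table equal GENCODE M21 on GRCm38 for all 9 genes. Counting tool, annotation and strand use: not given in the sources used here. Counts deposited by the authors are whole, but 1091 to 1137 genes per library stand at a count of 4, against 792 to 867 at 3, so they were treated as estimated counts, and rounding changed 0 of them. The FPKM deposited by the authors equal counts per kilobase of all annotated exons, up to a factor of 1.18 to 1.27 for the 9 genes. Counts were tested with edgeR 4.0.16 in R 4.3.3 (filterByExpr, TMM, quasi-likelihood test, Benjamini-Hochberg adjustment over 20132 genes, threshold 0.05), and the steps were tested on simulated data. Log2 fold changes put libraries labelled knockout over WT. Shares and ratios were tested by exact permutation. Named outside the 9 were up to 6 called genes per list, barely detected defining markers and the 5 most alike genes. Genes that did not pass, Cxcl13 and the other tissues' genes were named after their values were seen. The members and lists were chosen with earlier results of these data known. Alternatives were DESeq2 1.42.0, its size factors, library totals, no filter, limma 3.58.1 on log2(FPKM + 1) and log2(FPKM + 0.1), counts divided by 4, mitochondrial genes left out, immunoglobulin genes left out of TMM, the replicate number as a block, other share scales and each library left out. Some listed genes are not reported here.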

Additional observations from a re-analysis of the deposited data

How the results depend on the processing

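No direction of the 9 fold changes turned under any of the 16 settings tried, and 133 of 144 fold changes stayed on the same side of the threshold. The number of the 9 that rose was 6 to 8 over these settings and 5 to 7 with a library left out, where 1 fell each time. It was 0 lower with library totals and with limma on log2(FPKM + 1) or log2(FPKM + 0.1), since Ighm lost its call. Genes of the other lists counted 6 higher and 12 lower, where 13.2% of all tested genes rose and 11.5% fell. With a library left out they counted 4 to 6 higher and 11 to 13 lower. Of all tested genes 9.25% to 11.3% then rose and 8.43% to 9.55% fell. The listed genes became 22 higher with library totals and 21 higher in both limma fits, where 46.8%, 46.9% and 46.3% of all tested genes were higher, and 7 lower in limma on log2(FPKM + 0.1). The replicate numbers do not pair the libraries (correlations of deviations 0.034, -0.023 and -0.0096, and 1 of 3 libraries labelled knockout closest to its own number). The replicate block left 6 higher and 1 lower, and its sign-flip tests of shares and ratios cannot go below 0.25. Over other share scales the Igha share differed by 33.9 to 37.9 points and the Ighg2b share by -5.85 to -0.97. Of 113 shares and ratios under alternatives 5 turned, all of Mzb1 to the heavy-chain sum, whose difference of 0.025 became -0.25 in counts, -0.26 with 0.1 added to FPKM and -0.36 to 0.24 with a library left out (the cause was not tested). With a library left out, the Igha share differed by 33.3 to 35.5 points, Ighm by -29.1 to -24.1, Ighg1 by 2.96 to 3.29, Ighg2b by -2.10 to -0.78 and Ighg2c by -11.6 to -7.65. Depth limits Mzb1, Ighg1 in WT and Ms4a1.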
